A study of Mus musculus with 3 samples.

Results

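The Slit, Robo and Srgap genes are 10 members of 1 signalling system, and all 10 were measured, among 19938 genes that had a probe set with 1 gene symbol on the array. They were chosen by name: the secreted ligands Slit1, Slit2 and Slit3, the receptors Robo1, Robo2, Robo3 and Robo4, and the receptor-bound GTPase-activating proteins Srgap1, Srgap2 and Srgap3. Each was read by 1 probe set apart from Srgap3, which had 2 that were averaged on the log2 scale. Expression was measured on Affymetrix arrays in ureteric tip cells of mouse embryos at 10.5 days post coitum (Theiler stage 18). The embryos were of the CD-1 strain and of unknown sex, and carried the transgene Tg(Hoxb7-EGFP)33Cos, a Hoxb7-driven green fluorescent reporter that labels the nephric duct and the buds it gives rise to. The 3 arrays formed 1 group without a control, and each held the sorted cells of 1 bud, whose RNA went through 1 round of amplification. There was therefore no comparison between conditions, and the comparison open to the design was of each gene's signal with the background of its array.

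Slits are large secreted proteins with leucine-rich repeats that bind the immunoglobulin domains of Robo receptors, and the srGAPs dock on the cytoplasmic tails of Robos and switch off small GTPases. The system is best known for steering axons away from the midline, and it also acts in blood vessels and in the kidney. In mouse embryos without Slit2 or Robo2, extra ureteric buds form because the domain of Gdnf, the growth factor that draws the bud out, extends too far forward along the nephric duct. In that model the duct is a source of Slit2 and the nephrogenic mesenchyme beside it expresses Robo2.

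Of the 10 genes, 8 lay above background and 2, Slit1 and Robo3, did not (limma, one-sided, adjusted over all genes, threshold 0.05). Of all genes on the array 53% were above background by the same test, and the members' median signal above the background level was 1.06 log2, against 0.22 log2 over all genes. Olfactory receptors, taken as silent in this tissue, set the background level of each array through the 95th percentile of their probe sets, which stood at 5.40, 5.45 and 5.41 log2 on arrays 1, 2 and 3. Bud and duct markers were above background in 18 of 18 genes. Markers of other cell types were also called, endothelial ones in 14 of 20 genes and erythroid ones in 5 of 9 (55.6%). Neural crest and neuron markers were called in 6 of 11 (54.5%), counting Ret, which is also a bud gene. The erythroid and neural shares were near that of all genes. At the 99th percentile the endothelial, erythroid and neural counts were 4, 0 and 3. With keratin-associated protein and defensin genes as background they were 0, 0 and 1. Stromal markers were above background in 3 of 12 genes (Col1a1, Col3a1 and Twist1) and leukocyte markers in 3 of 12.

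The deposited values limit what can be said about the spread between buds. Slit1, Slit2, Slit3, Robo1, Robo3 and Srgap1 each hold 1 identical value on all 3 arrays, as do 51.7% of all genes, and Robo2 and Robo4 hold the same value on 2 of their 3 arrays, as do 28.7% of all genes. For the arrays that share a value the deposited table carries no information on how the buds differed. The p-values of genes with 1 value on all arrays therefore do not measure agreement between buds. Their spread in the fit comes only from the background levels and from what the fit borrows from other genes. Some members also shared their exact value with other genes: 89 other genes had the value of Slit1, 62 that of Slit3, 80 that of Robo3 and 23 that of Srgap1. The 3 values of Slit2, Robo1, Robo2, Robo4, Srgap2 and Srgap3 were, as a set, held by no other gene.

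**Figure D1:**
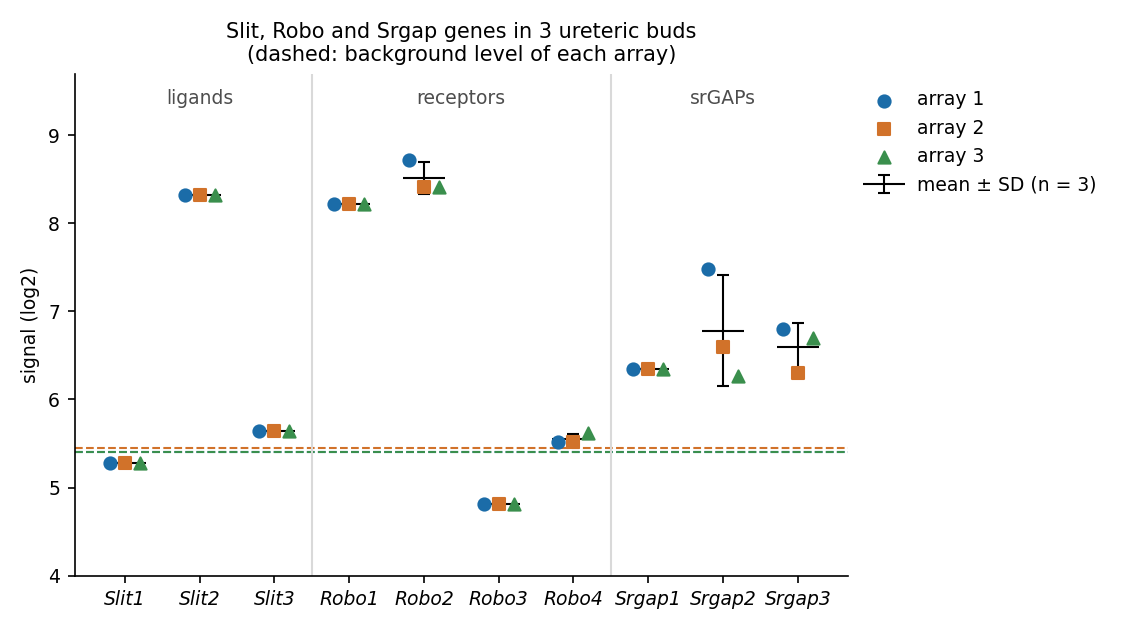
Signal (log2) of the 10 genes on arrays 1, 2 and 3 (circles, squares and triangles), with black bars for the mean ± SD (n = 3) and dashed lines for the background level of each array. Slit2, Robo1 and Robo2 stand more than 2 log2 above the lines, Slit3 and Robo4 just above them, and Slit1 and Robo3 below.

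Among the ligands, Slit2 was the member far above background. Slit2, the ligand whose loss leads to extra buds, had a signal of 8.32 log2 on each of the 3 arrays. This was 2.90 log2 above the background level (limma, adjusted p = 9.03e-07). Slit3, a ligand also known from the diaphragm and vasculature, had 5.64 log2 on every array, only 0.22 log2 above the level (limma, adjusted p = 0.00109). The call of Slit3 was lost at the 99th percentile of olfactory receptors, where it lay 0.42 log2 under the level. It also did not pass without array 1 or without array 3 (limma, adjusted p of 0.104 and 0.0944). Its signal was unchanged there, 0.21 log2 above the level in both, but those fits pooled the spread over all genes, unlike the main fit. Slit1, a ligand mostly studied in the nervous system, had 5.28 log2 on every array, which was −0.14 log2 relative to the background level and not above it (limma, adjusted p = 1). With the 90th percentile as the level, or with vomeronasal receptors as background, Slit1 passed (limma, adjusted p of 9.71e-05 and 0.000322).

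Slit2 and Slit3 each host a copy of the microRNA gene for miR-218, which has been reported in human cells to repress ROBO1. In GRCm38.p6 the hairpin of Mir218-1 lies within the Slit2 gene at chr5:48223942-48224051 and that of Mir218-2 within the Slit3 gene at chr11:35616816-35616925, both on the plus strand like their hosts. The RefSeq sequences are shown because the 2 hairpins give the same 5p microRNA from different surroundings. In the hairpins the capitals mark the mature arms, and in the mature sequence they mark the seed, bases 2 to 8.
Mir218-1 hairpin: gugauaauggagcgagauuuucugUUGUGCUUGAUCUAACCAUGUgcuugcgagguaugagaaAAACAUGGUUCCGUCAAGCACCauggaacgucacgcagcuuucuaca
Mir218-2 hairpin: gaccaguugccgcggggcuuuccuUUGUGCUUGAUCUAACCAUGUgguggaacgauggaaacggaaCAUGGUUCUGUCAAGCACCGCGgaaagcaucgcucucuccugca
mmu-miR-218-5p: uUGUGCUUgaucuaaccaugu
mmu-miR-218-1-3p: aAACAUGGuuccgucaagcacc
mmu-miR-218-2-3p: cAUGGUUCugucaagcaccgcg
The 3p arms have different seeds, so the arms fall into 3 seed groups, the shared 5p arm and the separate 3p arms.

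The probe set annotated to Mir218-1 had 6.84, 5.97 and 4.97 log2 on arrays 1, 2 and 3, while its host Slit2 held 1 value throughout. It was highest on array 1 and lowest on array 3, where it lay below the background level of 5.41 log2. Its mean of 5.93 ± 0.93 log2 (SD, n = 3) did not pass the test (limma, adjusted p = 0.253). The probe set annotated to Mir218-2 had 3.42 log2 on every array, below background. Of 300 microRNA genes, 205 had a mean below the level and 76 passed the test (25.3%). The value of Mir218-2 was shared with 73 other genes. Among the 300 microRNA genes, 11 had a wider range between arrays than the 1.87 log2 of Mir218-1. These probe sets were looked at because of their place in Slit2 and Slit3, and they do not tell the precursor from other transcripts of the same stretch or measure the mature microRNA.

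Among the receptors, Robo1 and Robo2 were far above background, Robo4 lay at its edge and Robo3 below it. Robo1, a receptor for Slits in many tissues, had 8.22 log2 on each array, 2.80 log2 above the level (limma, adjusted p = 9.38e-07). Robo2, the receptor required to keep budding to 1 site, had 8.72 log2 on array 1 and 8.41 log2 on arrays 2 and 3. Array 1 was the high one by 0.32 log2, and all 3 values cleared the background level. The mean of Robo2 was 8.51 ± 0.18 log2 (SD, n = 3), 3.09 log2 above background (limma, adjusted p = 1.75e-05). Slit2, Robo1 and Robo2 kept their calls in all 12 alternative analyses, with adjusted p-values of at most 0.00232 in those that fit a model. For Slit2 and Robo1, with 1 value on all arrays and 1 probe set each, several alternatives could not change the signal. These were leaving out an array, the brightest probe set and the filter on dim probe sets.

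Because Robo2 is known from the nephrogenic mesenchyme, the mesenchyme markers were read beside it. They were above background in 4 of 12 measured genes (33.3%, against 53% of all genes), Cited1, Wt1, Uncx and Sall1. Cited1 had 7.08, 7.13 and 6.86 log2 on arrays 1, 2 and 3, in the mean 1.60 log2 above the level. Sall1, Uncx and Wt1 lay 0.68, 0.22 and 0.18 log2 above it. The log2 values of the 12 genes summed to 63.7, 63.6 and 63.5 on arrays 1, 2 and 3. Of the 12, 9 held 1 value on all arrays, so the sums could differ only through Six2, Cited1 and Hoxa11. They do not tell whether the buds differed in mesenchyme. The count of called mesenchyme markers was 2 without array 1, without array 3 or with an SD floor. Those fits pooled the spread over all genes, unlike the main fit. The count was 1 at the 99th percentile, and 7 at the 90th percentile or with vomeronasal receptors as background. The mesenchymal genes Six2, at 5.21, 5.21 and 5.18 log2, and Gdnf, at 5.31 log2 on every array, were not above background. Osr1, at 4.50 log2, and Meox1, at 4.21 log2, were also not above it. The part of other cells in the Robo2 signal was not tested, and in a bulk sample fewer cells of a type and less RNA per cell cannot be told apart.

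Robo3, the receptor that governs midline crossing of axons and in mammals binds Nell2 rather than Slits, had 4.81 log2 on every array. It lay at −0.61 log2 relative to the level and was not above background in any of the 12 alternatives (limma, adjusted p from 0.94 to 1 where a model was used). Its signal, equal on all arrays, could not change by leaving out an array. Dcc, the netrin receptor that Robo3 partners with, held exactly the same 4.81 log2 on all 3 arrays and was not called either. Nell2, the Robo3 ligand, had 4.00 log2 on every array and was not above background.

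Robo4, the paralogue of blood vessel endothelium, had 5.52 log2 on arrays 1 and 2 and 5.62 log2 on array 3. All 3 values lay just above their array's background level, by 0.13 log2 in the mean (limma, adjusted p = 0.0256). The mean was 5.55 ± 0.06 log2 (SD, n = 3). The call did not hold without array 1 or without array 3 (limma, adjusted p of 0.277 and 0.443), where Robo4 still lay 0.14 and 0.09 log2 above the level. Nor did it hold when small SDs were raised to a floor (limma, adjusted p = 0.247). Those 3 fits pooled the spread over all genes, unlike the main fit. At the 99th percentile Robo4 lay 0.51 log2 under the level.

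Endothelial markers were above background in 14 of 20 genes (70%, against 53% of all genes) and differed between the buds. The count depended on the background. It fell to 4 when the level was the 99th percentile of olfactory receptors, and to 0 with keratin-associated protein and defensin genes. Vomeronasal receptors as background raised it to 19, and the 90th percentile of olfactory receptors raised it to 18. In the other alternatives it was 13 to 17. The log2 values of the 20 endothelial markers summed to 127, 116 and 134 on arrays 1, 2 and 3. Of the 20, 17 had their lowest value on array 2 and 13 had their highest on array 3. Pecam1, a junction protein of endothelium, had 6.32, 5.86 and 6.62 log2 on arrays 1, 2 and 3, and Cdh5, the vascular cadherin, had 8.22, 5.89 and 8.07 log2. Tek, the angiopoietin receptor, had 6.69, 5.67 and 7.34 log2 and Emcn, a sialomucin, 8.37, 6.73 and 9.55 log2. Kdr, a VEGF receptor, had 6.32, 5.55 and 7.04 log2 and Esam 5.97, 5.36 and 6.02 log2, and neither passed the test (limma, adjusted p of 0.0548 and 0.0969). Robo4 was also highest on array 3, with a range of 0.10 log2 and equal values on arrays 1 and 2. Ranges of the endothelial markers went from 0 for Eng, Sox18 and Gpr182 to 3.09 log2 for Cd34. They were 0.13 log2 for Flt1, 0.17 log2 for Plvap, 2.32 log2 for Cdh5 and 2.83 log2 for Emcn. The sum of the log2 values of the erythroid markers was also lowest on array 2, at 56.4, 49.0 and 54.5 on arrays 1, 2 and 3. The embryonic globin Hbb-y had 8.86, 5.48 and 8.52 log2, Hba-x 7.98, 5.87 and 7.39 log2 and Hbb-bh1 6.32, 4.42 and 5.32 log2. Alas2, Slc4a1, Klf1 and Epor each held 1 value. Gata1, at 5.32, 5.32 and 5.30 log2, and Tal1, at 6.08, 6.08 and 6.13 log2, were equal on arrays 1 and 2. The low sum on array 2 thus came from the globins. The part of endothelial and blood cells in the Robo4 signal was not tested.

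**Figure D2:**
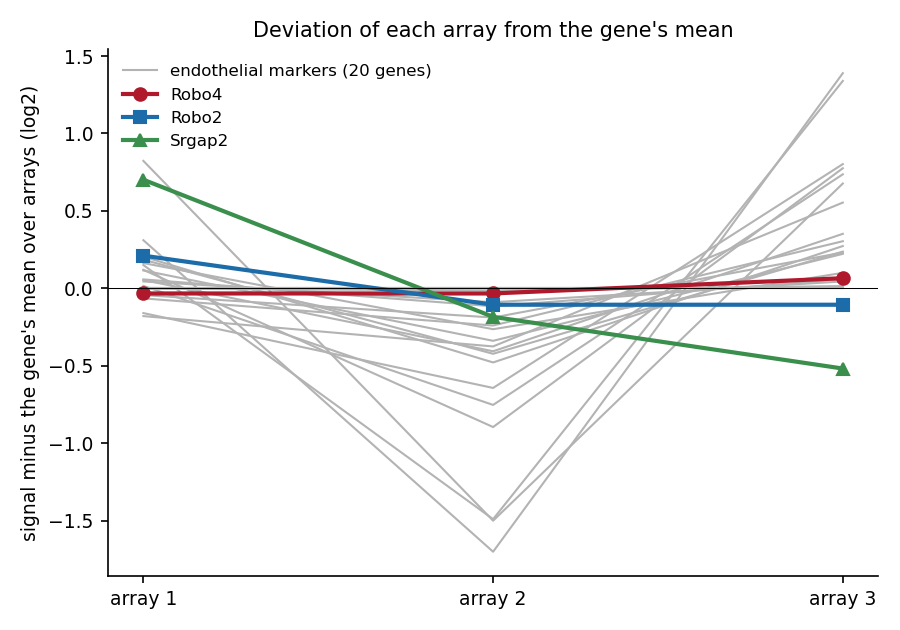
Signal on each array minus the gene's mean over arrays (log2) for Robo4, Robo2 and Srgap2 (coloured) and 20 endothelial markers (grey); lines join the values of 1 gene, and the arrays have no order. Most grey lines dip on array 2 and peak on array 3, Robo4 stays within 0.10 log2, and Srgap2 is highest on array 1 and lowest on array 3.

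The 3 srGAPs were above background in the main analysis, though not with keratin-associated protein and defensin genes as background, and Srgap2 and Srgap3 had the widest ranges between buds among the members. Srgap1, an srGAP known to act on Cdc42 below Slit and Robo, had 6.35 log2 on every array, 0.93 log2 above the level (limma, adjusted p = 1.2e-05). Srgap2, whose F-BAR domain shapes membrane protrusions, had 7.48, 6.60 and 6.26 log2 on arrays 1, 2 and 3. Array 1 was the high one, and its values spanned 1.22 log2, a range wider than that of 98.6% of all genes. The mean of Srgap2 was 6.78 ± 0.63 log2 (SD, n = 3), above background in the main analysis (limma, adjusted p = 0.00907) but not without array 2 (limma, adjusted p = 0.0794). Over all genes, 473 of 19938 had a range over 1 log2, and Srgap2 was the member among them.

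Of the 18 bud markers, 13 were highest on array 1, as Srgap2 was, and 10 were lowest on array 3. Wnt11, Epcam and Grhl2 held 1 value, and Calb1 and Wnt9b were highest on array 2. Array 1 was also most often the highest among co-receptors and other ligands (3 of 12), intracellular partners (5 of 17) and budding genes (6 of 16). In these 3 lists 8, 7 and 7 genes held 1 value on all arrays and could not be highest on any. The share over all genes was not counted, so the counts do not set these lists or the bud markers apart from other genes. The median signal of the bud markers was 8.48, 8.12 and 7.90 log2 on arrays 1, 2 and 3. The log2 values of these markers summed to 152, 147 and 145 on arrays 1, 2 and 3. Whether the share of bud cells moved with the Srgap2 signal was not tested. Of 6117 other genes above background whose values differ between arrays, the nearest to Srgap2 in pattern was Stk25, whose values, after each gene's mean over the arrays was subtracted, differed from those of Srgap2 by 0.055 log2 at the largest. The next were Spink8, Ppme1, Tet1 and Cops7a, with largest differences of 0.08 to 0.10 log2. For Robo4 the nearest were Wdcp, B4galt7, Tm6sf1, Polr2m and Dck, all equal on arrays 1 and 2 like Robo4 and within 0.000647 log2 of its pattern. A gene equal on 2 arrays has a pattern set by 1 difference, and 28.7% of all genes have 2 equal arrays. Such close matches therefore do not tell of shared behaviour.

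Srgap3, linked to dendritic spine and brain development, had averages of 6.80, 6.30 and 6.70 log2 on arrays 1, 2 and 3, with array 2 the low one. The mean was 6.60 ± 0.27 log2 (SD, n = 3), 1.18 log2 above background (limma, adjusted p = 0.00119). Its 2 probe sets disagreed in level and spread. One had 7.73, 6.82 and 7.62 log2 on arrays 1, 2 and 3, a range of 0.91 log2, and the other 5.88, 5.78 and 5.78 log2, a range of 0.10 log2. The range between arrays was 0.51 log2 for the average of both, and 0.10 log2 without array 2, narrower than that of Robo2.

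Genes that work with Slits and Robos outside the family were mostly above background. Of 12 co-receptors and other ligands, 10 were called (83.3%, against 53% of all genes), and Dcc and Nell2 were not. The median of the 12 was 0.74 log2 above the level, against 0.22 log2 over all genes. The glypican Gpc1, a heparan sulfate carrier that binds Slit, had 5.96 log2 and the syndecan Sdc1 6.68 log2, each the same on all 3 arrays. Dag1, the dystroglycan that binds the C-terminal part of Slits, had 7.75, 7.58 and 7.72 log2 on arrays 1, 2 and 3. Flrt3, a membrane protein that binds Robo1, had 6.35, 6.32 and 6.38 log2. Unc5b, the netrin receptor family member that binds Robo4, had 5.49 log2 on every array and was called by a margin of 0.07 log2 (limma, adjusted p = 0.0444).

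Of the 17 measured intracellular partners of Robo, 16 were above background (94.1%, against 53% of all genes). Their median was 2.07 log2 above the level, against 0.22 log2 over all genes. Abl1, a kinase that phosphorylates Robo, had 6.91 log2 on every array, while its relative Abl2, at 5.47, 5.56 and 5.56 log2, lay 0.11 log2 above background (limma, adjusted p = 0.0153). The actin regulators Enah, Evl and Vasp had means of 7.98 ± 0.06, 8.01 ± 0.04 and 6.88 ± 0.14 log2 (SD, n = 3). Nck1, an adaptor that links Robo to actin regulators, had a mean of 8.42 ± 0.15 log2. The GTPases on which srGAPs act were well above background, Cdc42 with a mean of 10.72 ± 0.10 log2, Rhoa with 10.87 ± 0.12 log2 and Rac1 with 10.14 log2 on every array. Cables1, which links Robo to N-cadherin through Abl, had 4.91 log2 on every array and was not above background.

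Genes that set the site of budding were above background in 9 of 16 measured members (56.2%), near the 53% of all genes. Their median was 0.74 log2 above the level, against 0.22 log2 over all genes. Ret, the GDNF receptor of the bud, had 8.69, 8.35 and 8.18 log2 on arrays 1, 2 and 3 and its co-receptor Gfra1 8.58, 8.22 and 7.85 log2. Spry1, which damps Ret signalling, had 6.31 log2 and Bmp4, which holds back ectopic budding, 6.57 log2, each on every array. The members not above background were Gdnf, the BMP antagonist Grem1 (5.10 log2 on every array), the forkhead genes Foxc1 (5.10 ± 0.32 log2, SD, n = 3) and Foxc2 (5.28 ± 0.23 log2), Eya1 (5.36 log2), Fgf10 (4.58 ± 0.06 log2) and Nfia (5.19 log2). Gdnf lay at −0.10 log2 relative to the level (limma, adjusted p = 1), but like Slit1 it passed at the 90th percentile (adjusted p = 7.02e-05) and with vomeronasal receptors as background (adjusted p = 0.000104), where 13 and 15 of the 16 budding genes were called.

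**Figure D3:**
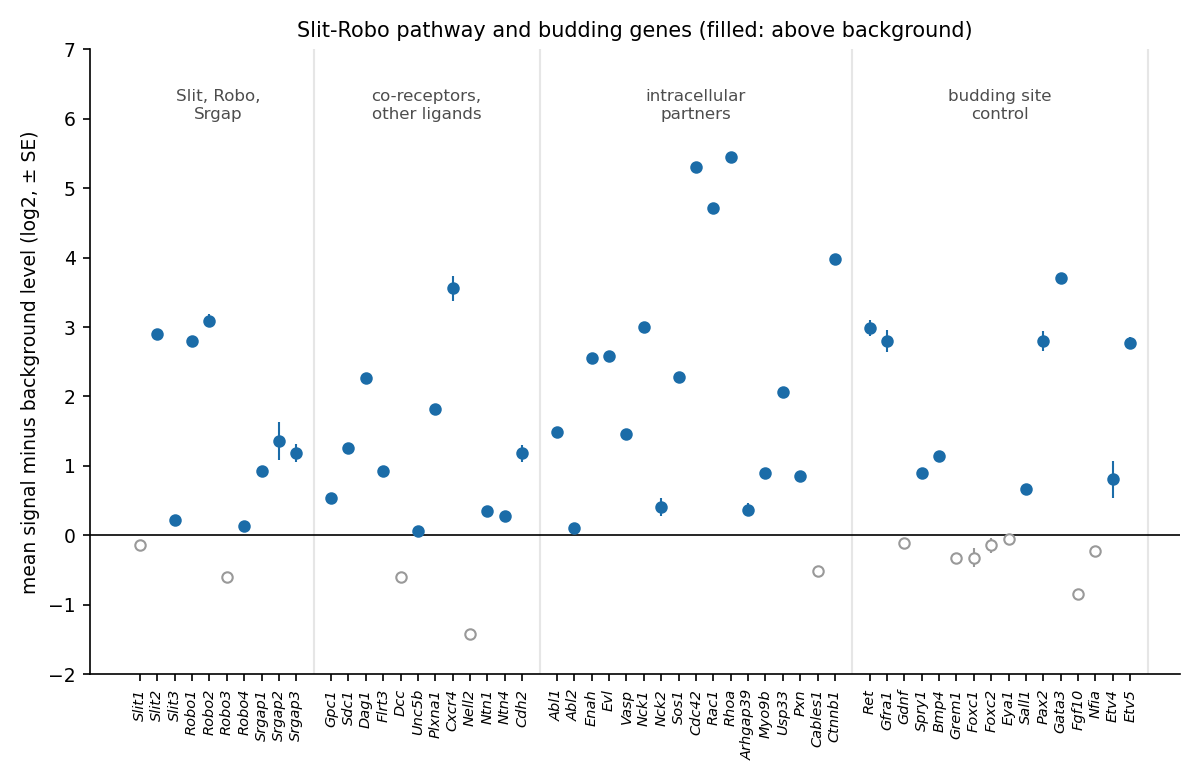
Mean signal minus the background level (log2, bars show the SE of the limma fit, 3 arrays) of the 10 family genes, their co-receptors and other ligands, the intracellular partners of Robo and the genes of budding site control; filled circles passed the test. Rhoa and Cdc42 lie over 5 log2 above the level, and 7 of the 16 budding genes lie under it.

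Promoter sequence, which the arrays do not measure, differed between the members. RefSeq promoter windows (GRCm38.p6, 250 bases before to 50 after the gene start) were found for 9 of the 10 genes, with 3 windows for Robo2 and none used for Slit1. Slit2, Robo2 and Robo4 are shown as the ligand and receptor far above background and the endothelial paralogue at its edge. Capitals mark every match, on either strand, to a TATA box (TATAAA), a GC box (GGGCGG) or a CCAAT box (CCAAT), and matches to different motifs do not overlap in these windows.
Slit2 chr5:47982905-47983204, plus strand: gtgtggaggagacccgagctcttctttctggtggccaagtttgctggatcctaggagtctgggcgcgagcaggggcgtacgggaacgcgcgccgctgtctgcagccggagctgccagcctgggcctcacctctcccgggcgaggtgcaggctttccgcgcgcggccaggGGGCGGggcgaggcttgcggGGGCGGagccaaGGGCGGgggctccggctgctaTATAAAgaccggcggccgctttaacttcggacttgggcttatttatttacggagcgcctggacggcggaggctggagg
Robo2 chr16:75447244-75447543, minus strand: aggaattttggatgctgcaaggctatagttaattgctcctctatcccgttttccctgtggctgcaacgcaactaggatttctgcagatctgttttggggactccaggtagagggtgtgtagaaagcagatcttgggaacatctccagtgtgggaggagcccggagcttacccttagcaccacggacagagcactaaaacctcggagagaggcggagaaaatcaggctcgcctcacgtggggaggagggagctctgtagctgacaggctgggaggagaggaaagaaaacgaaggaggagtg
Robo4 chr9:37401722-37402021, plus strand: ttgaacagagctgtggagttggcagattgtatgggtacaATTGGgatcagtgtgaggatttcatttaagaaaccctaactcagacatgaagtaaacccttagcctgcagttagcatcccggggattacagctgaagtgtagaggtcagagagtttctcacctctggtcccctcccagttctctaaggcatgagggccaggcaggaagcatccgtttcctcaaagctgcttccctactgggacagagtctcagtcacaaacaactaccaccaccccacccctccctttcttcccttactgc
The Slit2 window holds a TATA box that starts 28 bases before the gene start and 3 GC boxes. The first Robo2 window, shown here as the most upstream of the 3, holds no match, and the Robo4 window holds 1 CCAAT box on the minus strand.

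Of all 32851 windows of this length, 13.6% hold this TATA box, 35.7% the GC box and 37.4% the CCAAT box. GC boxes were found in the windows of Slit2, Slit3, Srgap1, Srgap2, Srgap3 and Robo3, with 6 in that of Slit3, and in none of the Robo1, Robo2 and Robo4 windows. An ETS site spelled CCGGAA, present in 14.9% of all windows, was in no window of the family. The ratio of observed to expected CpG was 0.11 for Robo4, with 2 CpGs in its window, and 14.2% of all windows had a lower ratio. It was 0.90 for Slit2, 0.93 for Slit3 and 0.95 for Srgap1, against a median of 0.38 over all windows. Whether the CpG ratio of a window goes with the signal of its gene was not tested.

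**Figure D4:**
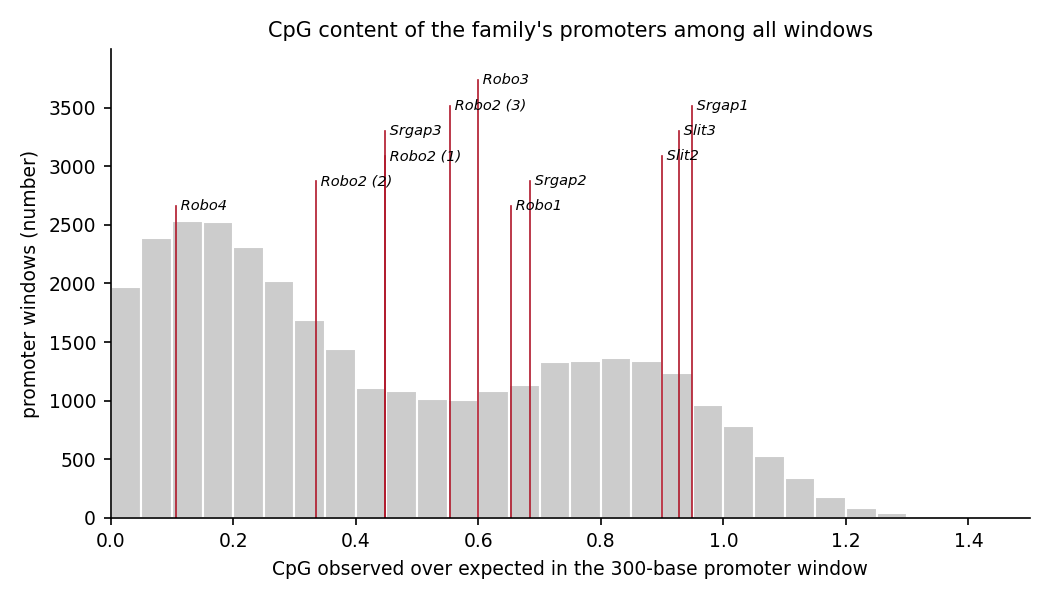
Number of promoter windows (grey bars, 32851 windows) by the ratio of observed to expected CpG, with a red line for each window of the family; the numbers after Robo2 name its 3 windows. Robo4 lies at 0.11 and Slit2, Slit3 and Srgap1 between 0.90 and 0.95.

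How far above background each member stood under every setting is shown in the map of settings. Slit2, Robo1 and Robo2 were above background in each row and Robo3 in none, whereas Slit1, Slit3, Robo4 and the srGAPs changed their call in at least 1 row. Rows that leave out an array or take the brightest probe set could not change the signal of members with 1 value on all arrays.

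**Figure D5:**
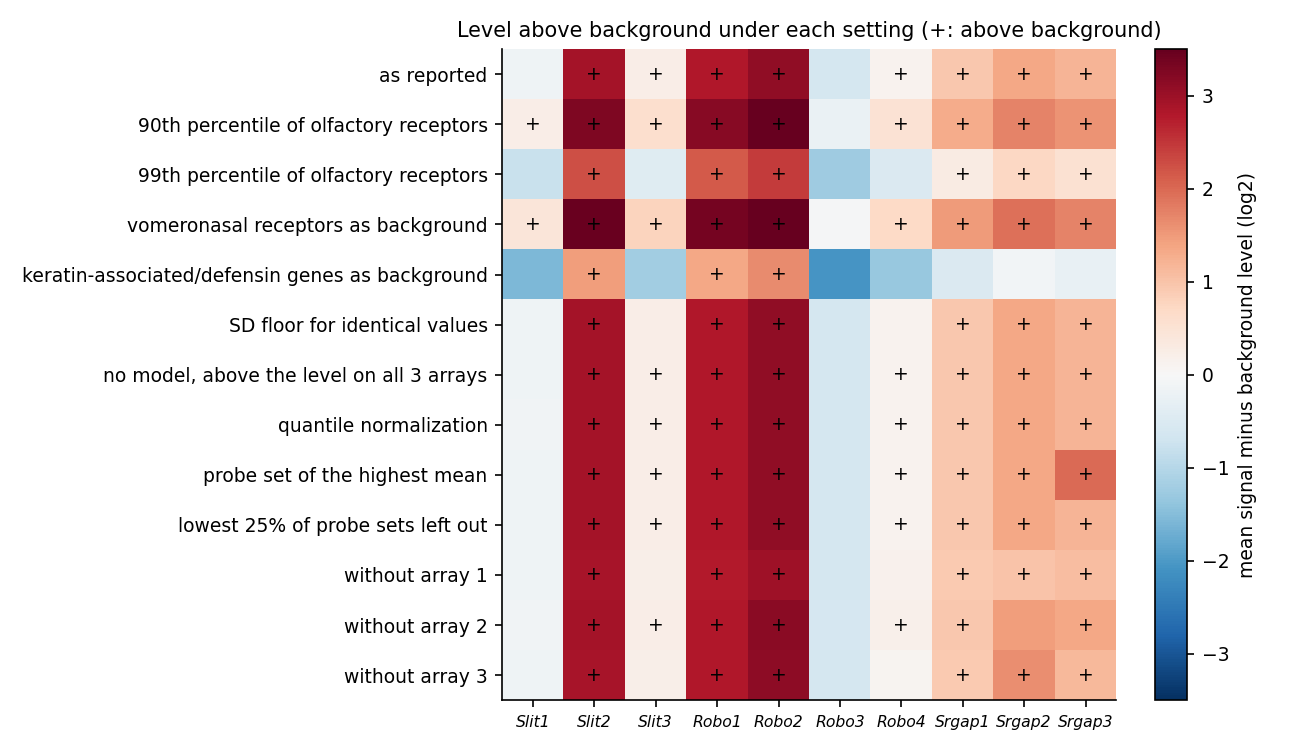
Mean signal minus the background level (log2, colour) of each gene under the reported and 12 alternative settings, where a plus sign marks a gene above background. The row with keratin-associated and defensin genes as background keeps 3 members, Slit2, Robo1 and Robo2.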

How the data were processed

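Gene expression was measured in 3 sorted ureteric tip samples on Affymetrix arrays, 1 bud per array. The values deposited by the authors are 1 log2 number per probe set and array (35557 probe sets), and the submitters' processing notes name Affymetrix Expression Console; the base was inferred from the range of the values. The sources used here do not give the background correction, normalization or probe summary. Array medians were 5.47, 5.50 and 5.48 log2, and the columns were used as deposited. The number of arrays limits the precision, and nothing says whether the buds came from separate litters.

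Gene names came from the platform annotation (21789 with 1 symbol, 1621 with several, 12147 with none listed), and only those with 1 symbol were used, averaged per gene. The value of each gene minus its array's background level (95th percentile of 1035 olfactory receptor probe sets) was fitted with limma 3.58.1 in R 4.3.3, tested one-sided above 0 and adjusted by Benjamini-Hochberg over 19938 genes. For genes identical on all arrays (tolerance 1e-06 log2) the fit's spread reflects only the background levels and the prior. Differences between arrays, each 1 bud, have no test. Named genes were all members, the first 6 measured genes of each pathway list and of the endothelial list, and all pathway genes not called; others were named after their values were seen. The members and lists were chosen with earlier results of these data known. Listed genes without such a probe set are not analysed here. The alternatives were other background levels and gene classes, an SD floor, a rule without a model, quantile normalization, the brightest probe set, a filter on the lowest 25% of probe sets, and leaving out each array.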

Additional observations from a re-analysis of the deposited data

How the results depend on the processing

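Most changed calls came with another background. With the background taken from keratin-associated protein and beta-defensin genes, 4210 genes lay above it, against 10567 in the main analysis, with 3 family members, 3 co-receptors and other ligands, 9 intracellular partners and 5 budding genes; Srgap1, Srgap2, Srgap3, Slit3 and Robo4 then lay below the level, at −0.52, −0.084, −0.26, −1.23 and −1.31 log2. At the 99th percentile of olfactory receptors 7034 genes, 6 family members and 6 co-receptors and other ligands were called, and Slit3 and Robo4 lay at −0.42 and −0.51 log2. With vomeronasal receptors 15 budding genes were called, and Slit1 lay 0.42 log2 above the level, as it did by 0.24 log2 at the 90th percentile. An SD floor for identical values left 6 family members, without Slit3 (limma, adjusted p = 0.0582) and Robo4. Leaving out 1 array gave 6 to 7 family members, 8 to 9 budding genes, 13 to 14 intracellular partners and 9666 to 10526 genes in all. Without array 1 or array 3, with the SD floor and with vomeronasal receptors the fit pooled the spread over all genes, unlike the main fit, so these alternatives differ from it in more than the choice they name. Ranges between arrays changed with the array left out: Robo2 had 0 without array 1, Robo4 0 without array 3, Srgap2 0.33 log2 without array 1 and Srgap3 0.10 log2 without array 2. No paired analysis was possible because there was 1 group. The number of arrays and the identical values limit every statement on spread.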

Other observations

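Exact values recurred across genes well beyond the family. Of 10311 genes that held 1 value on all 3 arrays, 8228 (79.8%) shared that value with at least 1 other such gene, and 1 value was held by 118 genes. Slit3 and the mesenchyme gene Uncx both stood at 5.64 log2, and Unc5b, which binds Robo4, and the endothelial gene Eng both at 5.49 log2.

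In the GRCm38.p6 gene order Robo1 and Robo2 are neighbouring protein-coding genes on chromosome 16, and Robo4 and Robo3 on chromosome 9. Both genes of the chromosome 16 pair lay more than 2 log2 above background, with means of 8.22 and 8.51 log2, whereas the chromosome 9 pair stood at the background level, with Robo4 at 5.55 log2, or under it, with Robo3 at 4.81 log2. The other members are each flanked by genes outside the family.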
